A study of Mus musculus with 12 samples.

Results

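The nuclear genes for the subunits of the mitochondrial respiratory chain and ATP synthase were examined in liver RNA sampled around the day from mice without cryptochromes. The members were chosen by gene symbol, as genes named Nduf (complex I), Sdh (complex II), Uqcr (complex III), Cox (complex IV) or Atp5 (complex V, ATP synthase) followed by a subunit letter or number, without pseudogenes, and by a mean of at least 5 CPM (exon counts scaled to the size of each library) over all libraries. Of 80 matching symbols, 74 reached that level, among 22618 genes in the table. They comprised 36 genes of complex I, 4 of complex II, 8 of complex III, 10 of complex IV and 16 of complex V.

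All animals were male Cry1/2 double knockout (DKO) mice on the C57BL/6j strain, 12 to 16 weeks old, conventionally raised and fed at night. Liver total RNA depleted of ribosomal RNA was sequenced at zeitgeber times (ZT, hours after lights on) 2, 6, 10, 14, 18 and 22, with 2 libraries at each time and 12 in all. Whether both libraries of a time come from different mice is not said in the labels, and the spread that the p-values rest on may be technical. Night-fed wild-type mice were not analysed here, so a value below describes the course of the day in DKO liver and not an effect of the deletion.

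The respiratory chain passes electrons from NADH (complex I) and succinate (complex II) through complex III to complex IV, which reduces oxygen, and the proton gradient built on the way drives ATP synthase. Most subunits are encoded in the nucleus, while a small set of core subunits is encoded by mitochondrial DNA; those mitochondrial genes were not analysed here. Hepatocytes are rich in mitochondria, and CRY1 and CRY2 are repressors of the circadian clock, acting on the CLOCK:BMAL1 factor that binds E-box sequences.

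Total exon counts ranged from 34715506 to 46074052 per library. Counts on Cry1 and Cry2 rows were 8.72 ± 2.19 and 17.7 ± 3.10 CPM (SD, n = 12), and gene totals do not show which exons were read. The summed level of 8 hepatocyte genes was 82787 to 111776 CPM in the day libraries and 76852 to 85943 CPM in the night libraries. Alb alone was 57723 to 89787 CPM over the 12 libraries, so the sum mostly follows 1 gene. Skeletal muscle markers summed to at most 0.909 CPM and pancreatic acinar markers to 21.01 CPM in ZT14 replicate 2, against a night median of 1.06. In bulk tissue, fewer cells of a type and less RNA per cell cannot be told apart. The libraries of ZT02 and ZT06 did not group by time: across 9876 genes of at least 5 CPM, each gene centred on its mean, Pearson's r was 0.21 between the 2 ZT02 libraries and 0.16 between the 2 ZT06 libraries. It was 0.47 between replicate 1 of ZT02 and of ZT06, and 0.59 between replicate 2 of both times. Within the other times r was 0.32 at ZT10, 0.45 at ZT14, 0.63 at ZT18 and 0.21 at ZT22, the last as low as at ZT02. These are descriptions across genes, which are not independent replicates. Results that rest on these libraries are given below also without each crossed pair, that is without ZT02 replicate 1 and ZT06 replicate 2, or without ZT02 replicate 2 and ZT06 replicate 1.

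The respiratory chain genes were nearly level through the day. Their summed level was 9309 CPM in the lowest library (ZT10 replicate 1), 9927 at the median and 10908.5 in the highest (ZT06 replicate 1). A 24 h cosine fitted to each gene with edgeR gave a peak-to-trough range with a median of 1.07-fold over the 74 genes, against 1.24-fold over the 9876 genes of at least 5 CPM. The 2 groups were not matched for level, and the lowest of the 74, Ndufs5, was at 23.7 CPM. Of the 74 genes, 1 (Atp5sl) had an adjusted p below 0.05 in the 24 h test, where 12.0% of the 17142 genes tested and 16.4% of those of at least 5 CPM passed. Apart from Atp5sl, the widest fitted range was 1.32-fold, for Ndufa8. The complexes lay close together, with median ranges of 1.07 for complex I, 1.07 for complex II, 1.07 for complex III, 1.10 for complex IV and 1.06 for complex V.

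**Figure D1:**
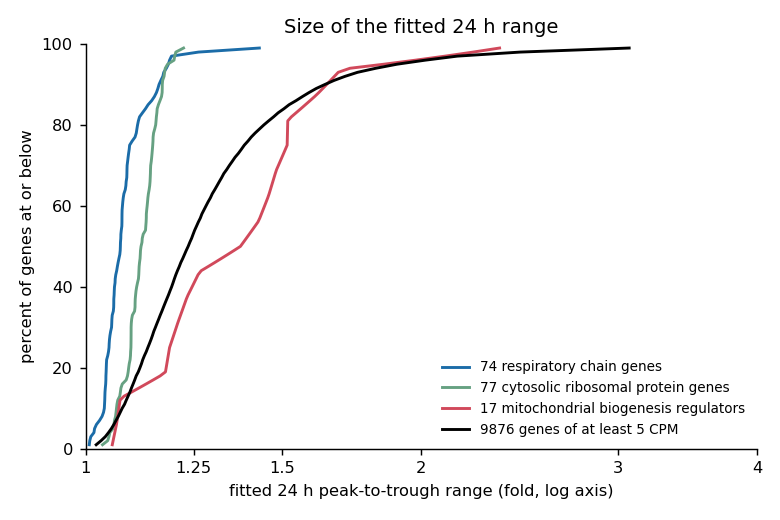
Cumulative distribution of the fitted 24 h peak-to-trough range (horizontal log axis, fold) as the percent of genes at or below it (vertical axis), drawn from the 1st to the 99th percentile for 4 gene groups. The respiratory chain genes (blue, median 1.07) and the cytosolic ribosomal protein genes (green, median 1.12) lie left of the genes of at least 5 CPM (black, median 1.24), and the biogenesis regulators (red, median 1.38) lie right of them over most of their range.

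The other tests gave as few calls. In the test for any difference among the 6 times, 1 member passed, where 4.82% of all genes tested did. For night (ZT14, ZT18, ZT22) minus day (ZT02, ZT06, ZT10), 2 members passed, where 9.7% of all genes tested did; 1 member was higher and 1 lower, where 4.8% of all genes were called higher and 4.89% lower. For dusk (ZT10, ZT14) minus dawn (ZT22, ZT02), 0 members passed by edgeR, limma-voom or DESeq2, where 5.91% of genes passed in edgeR. At an unadjusted p below 0.05 the count was 1 member (1.35%), Ndufs8, beside 22.8% of all genes tested. For a 12 h cosine added to the 24 h one, 0 members and 0.0% of all genes passed in edgeR, and 0 members in limma-voom and DESeq2. At an unadjusted p below 0.05 the 12 h count was 1 member (1.35%), Uqcrc1 (named after its value was seen), and 1358 of all genes (7.92%).

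The intervals around these small differences were narrow. The 95% interval of the edgeR night minus day difference lay within 1.25-fold in either direction for 70 of the 74 genes (94.6%), against 49.5% of the genes of at least 5 CPM. The exceptions were Ndufa8, Atp5g1, Atp5l and Atp5sl. The upper 95% limit of the 24 h range lay below 1.5-fold for 71 of 74 genes, against 48.8% of genes of at least 5 CPM; above it lay Atp5sl (2.11), Ndufa8 (1.71) and Atp5l (1.54). The median SD between replicates was 0.11 (log2 CPM) for the members, so that a mean of 2 libraries would vary by 0.07 from that spread alone. The median SD of their 6 time means was 0.07. For the genes of at least 5 CPM the same values were 0.14, 0.10 and 0.15. These genes were not matched to the members for level or spread, on which the width of an interval depends.

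**Figure D2:**
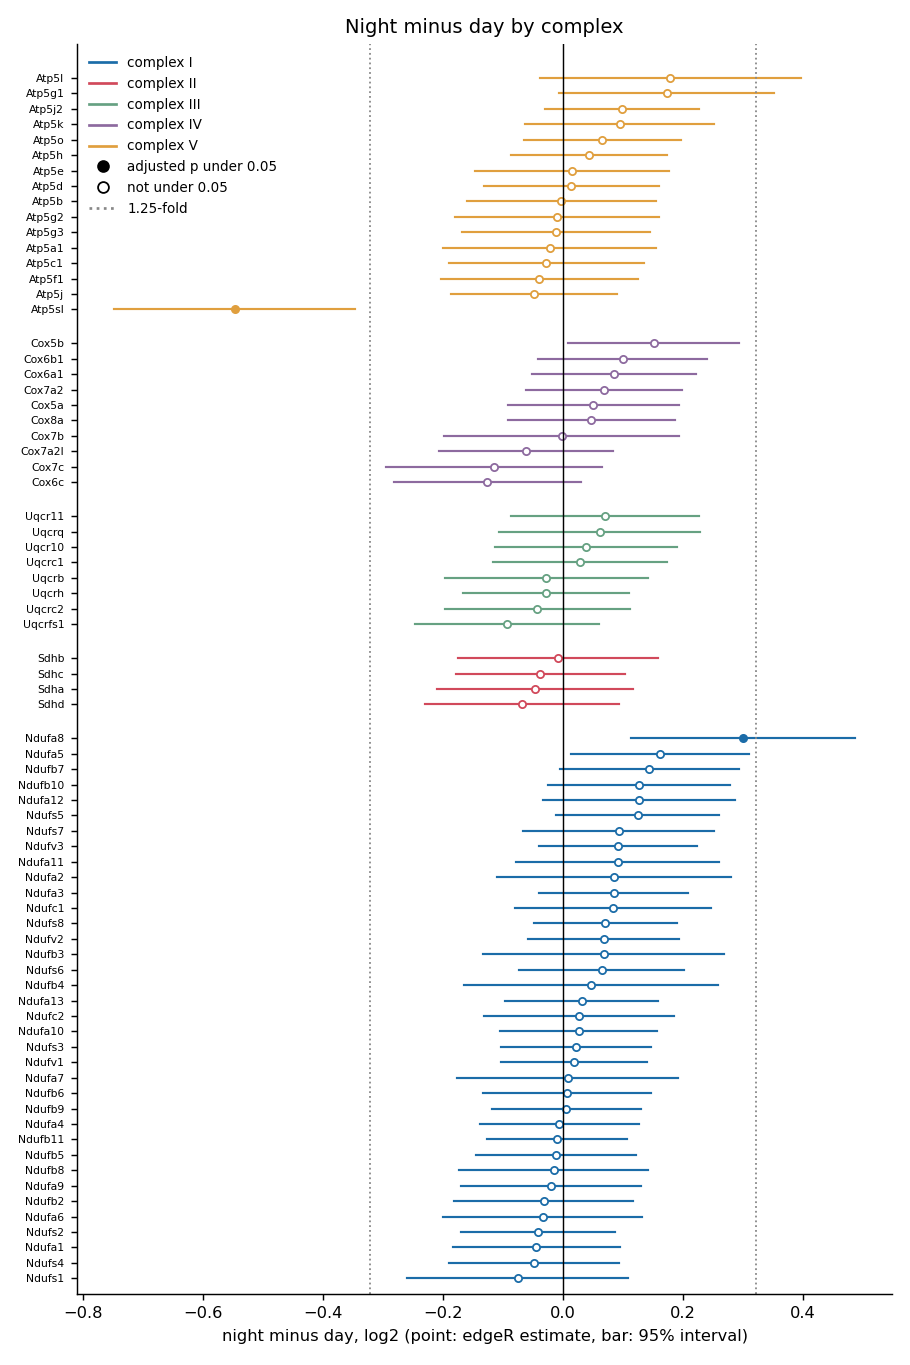
Night minus day difference of each of the 74 genes (horizontal axis, log2; point, edgeR estimate; bar, 95% interval), ordered by value within complexes I to V, with dotted lines at 1.25-fold. Atp5sl at -0.55 and Ndufa8 at 0.30, the filled points, stand apart from the other genes, whose estimates lie between -0.13 and 0.18.

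The 2 genes called for night minus day are shown here with the sequence around their transcription start. Atp5sl was lower at night and Ndufa8 higher, so they did not share a daily course, and the call of Ndufa8 lay at the threshold. A link between these sequences and the levels was not tested. Both stretches run from 250 bases before to 50 bases after the start in RefSeq's annotation of GRCm38.p6, 5′ to 3′ on the gene's strand. Capitals mark matches to a motif. The Ndufa8 stretch is chr2:36049289-36049588 on the minus strand and its capitals are a GC box (GGGGCGGGG) read on the opposite strand. The Atp5sl stretch is chr7:25619164-25619463 on the plus strand, the first of its 2 annotated starts, and its capitals are an E-box (CACGTG) and, after it, a match to the YY1 motif.
Ndufa8: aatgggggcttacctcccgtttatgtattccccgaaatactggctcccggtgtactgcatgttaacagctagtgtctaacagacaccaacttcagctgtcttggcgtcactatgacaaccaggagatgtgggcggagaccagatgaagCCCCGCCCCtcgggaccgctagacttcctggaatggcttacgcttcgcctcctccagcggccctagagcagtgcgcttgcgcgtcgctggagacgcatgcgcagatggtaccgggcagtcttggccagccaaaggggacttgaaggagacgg
Atp5sl: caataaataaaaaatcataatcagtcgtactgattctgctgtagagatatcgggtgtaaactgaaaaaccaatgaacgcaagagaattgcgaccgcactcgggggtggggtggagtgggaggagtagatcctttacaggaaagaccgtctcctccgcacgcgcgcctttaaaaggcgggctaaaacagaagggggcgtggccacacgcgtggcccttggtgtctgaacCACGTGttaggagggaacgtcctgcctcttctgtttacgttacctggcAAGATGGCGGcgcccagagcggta

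Atp5sl (ENSMUSG00000057229, GRCm38 chr7:25619414-25625551) had the widest daily course of the 74. Its symbol places it with ATP synthase, but RefSeq names the gene Dmac2, after the distal membrane arm of complex I, and its product is known as an assembly factor of complex I rather than a subunit of ATP synthase. Its level in replicates 1 and 2 was 31.0 and 36.9 CPM at ZT02, 32.4 and 41.0 at ZT06 and 34.6 and 30.6 at ZT10. In the dark phase the pairs were 19.6 and 25.1 CPM for ZT14, 22.3 and 22.9 for ZT18, then 24.4 and 27.0 for ZT22. All 6 day libraries lay above all 6 night libraries; Atp5sl was the 1 member of 74 with no overlap, where 3.7% of all genes tested had none.

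The day mean of Atp5sl was 34.4 ± 4.02 CPM and the night mean 23.6 ± 2.56 CPM (SD, n = 6 each; edgeR adjusted p = 0.00696), a log2 difference of -0.55 ± 0.09 (SE). The fitted 24 h range was 1.73-fold (95% interval 1.42 to 2.11 by least squares) with a peak at ZT 5.30 ± 0.61 (SE; edgeR adjusted p = 0.00627). These calls held in all 20 alternatives, with adjusted p up to 0.0310 for night minus day and 0.0409 for the 24 h test. Without ZT02 replicate 1 and ZT06 replicate 2 the log2 difference was -0.52, and without the other crossed pair -0.55. The call in the test of any difference among 6 times (edgeR adjusted p = 0.0497) rested on nearly every library, and omitting any single library other than ZT06 replicate 1 ended it (11 of 12 cases). A related gene under the threshold, Atp5s, which RefSeq names Dmac2l, had 3.82 CPM, a fitted range of 1.49-fold (edgeR adjusted p = 0.0946) and a log2 night minus day difference of -0.32 (edgeR adjusted p = 0.170).

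Ndufa8 (ENSMUSG00000026895, GRCm38 chr2:36036326-36049406), an accessory subunit of complex I on the side of the intermembrane space, was higher at night. Its level in replicates 1 and 2 was 56.2 and 46.6 CPM at ZT02, 58.0 and 47.8 at ZT06 and 41.7 and 40.1 at ZT10. In the dark phase the pairs were 66.5 and 50.6 CPM for ZT14, 61.4 and 62.5 for ZT18, then 57.6 and 57.1 for ZT22. The ZT10 libraries were the lowest of the 12, and the day and night libraries overlapped.

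The day mean of Ndufa8 was 48.4 ± 7.37 CPM and the night mean 59.3 ± 5.47 CPM (SD, n = 6 each), a log2 difference of 0.30 ± 0.09 (SE) with edgeR adjusted p = 0.0497. This call lay at the threshold. Omitting a single library ended it in 9 of 12 cases, with adjusted p up to 0.132; the exceptions were replicate 1 of ZT02 or ZT06 and replicate 2 of ZT14. It was lost too without either crossed pair of ZT02 and ZT06 libraries (edgeR adjusted p = 0.0787 and 0.0856), while the log2 difference stayed between 0.23 and 0.36 in every alternative. The 24 h test of Ndufa8 gave a range of 1.32-fold and edgeR adjusted p = 0.156.

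**Figure D3:**
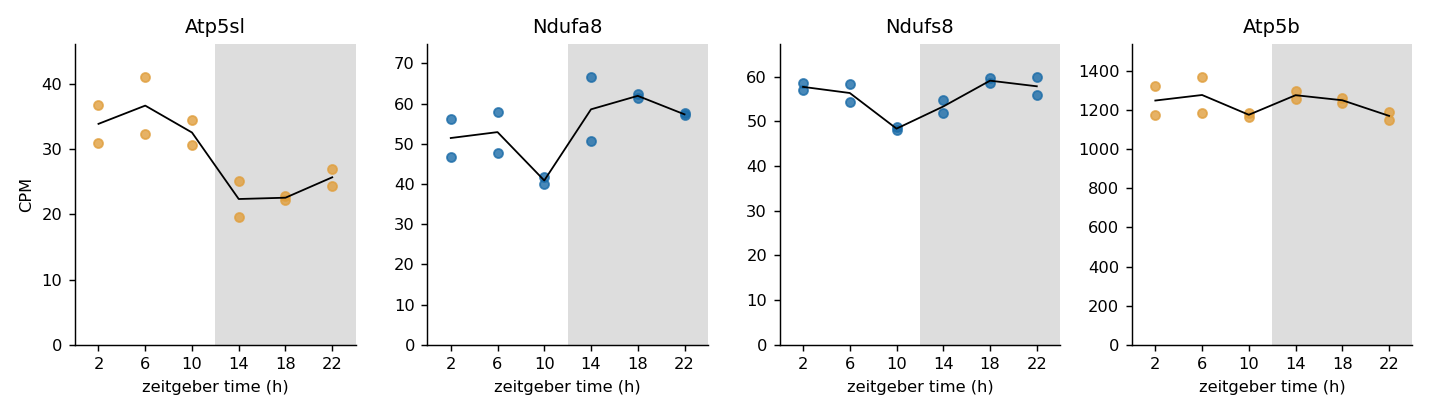
Level (vertical axis, CPM from 0) of Atp5sl, Ndufa8, Ndufs8 and Atp5b against zeitgeber time (horizontal axis, hours), with 1 point per library, a line through the mean of the 2 libraries of each time, and grey shading for the dark phase. Atp5sl lies at 30.6 to 41.0 CPM by day and 19.6 to 27.0 by night, Ndufa8 and Ndufs8 are lowest at ZT10, and Atp5b lies between 1151 and 1367 CPM.

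Complex I is the largest of the 5 complexes and oxidises NADH. Its nuclear genes include 7 core subunits, which carry the flavin and iron-sulfur clusters of the electron path, and 29 accessory genes. The 7 core genes had a median 24 h range of 1.07-fold and the 29 accessory genes one of 1.07-fold. Ndufv1, the flavin-binding subunit, was named after its value was seen. It was 146 to 161 CPM by day, with a median of 150, and 145 to 159 by night, with a median of 154. Its highest library was 1.11 times its lowest, the least of the 74. Ndufs8, a core subunit with 2 iron-sulfur clusters, was 48.1 and 48.7 CPM at ZT10, below each of the other 10 libraries (51.9 to 59.9). Its dusk minus dawn difference was -0.19 on the log2 scale (edgeR adjusted p = 0.126), and its 24 h range was 1.18-fold (edgeR adjusted p = 0.141). Ndufa4, now assigned to complex IV although it carries a complex I name, was 188 to 216 CPM by day and 193 to 212 by night, with a range of 1.01-fold. Ndufa5, an accessory subunit named here after its value was seen, had a log2 night minus day difference of 0.16 (95% interval 0.01 to 0.31; edgeR adjusted p = 0.155).

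Complex II, succinate dehydrogenase, links the citric acid cycle to the chain and has no mitochondrially encoded subunit. Its 4 genes, Sdha and Sdhb of the catalytic head and Sdhc and Sdhd of the membrane anchor, had log2 night minus day estimates of -0.01 to -0.07, and 0 of the 4 was above 0. None passed a test in edgeR, limma-voom or DESeq2, and 0 had an unadjusted edgeR p below 0.05. Of all genes tested, 7.92% (12 h) to 31.5% (24 h) had one, by test. Sdha was 398 to 522 CPM by day, with a median of 439, and 407 to 477 by night, with a median of 436. Sdhd was 147 to 179 CPM by day and 146 to 160 by night. The day and night libraries of both genes overlapped over nearly the whole night range.

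Complex III passes electrons from ubiquinol to cytochrome c. Uqcrfs1, the Rieske iron-sulfur protein, was 166 to 198 CPM by day, with a median of 178, and 154 to 186 by night, with a median of 170, a log2 difference of -0.09 (95% interval -0.25 to 0.06). Uqcr11, a small accessory subunit, was 108 to 126 CPM by day and 113 to 137 by night. Uqcrh, the hinge protein, had a range of 1.08-fold (edgeR adjusted p = 0.584). All 8 intervals for night minus day lay within 1.25-fold.

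Complex IV, cytochrome c oxidase, had the largest median range of the 5, 1.10-fold. Its 2 widest courses were those of Cox7c, 1.19-fold (edgeR adjusted p = 0.293), and Cox6c, 1.16-fold (edgeR adjusted p = 0.263). Cox6c was 126 to 152 CPM by day, with a median of 142, and 119 to 139 by night, with a median of 126. Cox7c was 81.2 to 106 CPM by day, with a median of 96.3, and 73.1 to 99.1 by night, with a median of 86.9. Both had lower medians at night, and the libraries overlapped. Cox5b, named after its value was seen, went the other way, with a log2 difference of 0.15 (95% interval 0.01 to 0.29; edgeR adjusted p = 0.164).

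Several complex IV subunits exist in a form found in most tissues, liver included, and a second form known from heart and skeletal muscle or from testis. The common forms were Cox6a1 at 163 ± 10.9 CPM, Cox6b1 at 147 ± 9.61, Cox7a2 at 106 ± 5.72 and Cox8a at 132 ± 7.98 (SD, n = 12). The muscle forms Cox6a2 and Cox8b averaged 0.00635 and 0.0133 CPM, Cox7a1 1.15 CPM, and the testis form Cox6b2 0.0673 CPM, all under the level threshold of 5. Cox7a2l, a relative of Cox7a2, was 64.1 to 75.4 CPM by day and 57.8 to 73.5 by night.

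Complex V makes ATP. The catalytic head genes Atp5a1 and Atp5b had the highest levels per length of the 74. Atp5b was 1166 to 1367 CPM by day, with a median of 1187, and 1151 to 1298 by night, with a median of 1246; its log2 night minus day difference was -0.002 (95% interval -0.16 to 0.16). Atp5a1 was 827 to 1106 CPM by day, with a median of 929, and 852.5 to 992 by night, with a median of 941. The day and night libraries of both genes overlapped.

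The membrane ring of ATP synthase is built from subunit c, and 3 genes encode the same mature subunit behind different import sequences. Atp5g3 was 186 to 244 CPM by day and 196 to 225 by night, Atp5g1 111 to 143 by day and 125 to 157 by night, and Atp5g2 25.7 to 31.1 by day and 27.1 to 33.1 by night. Atp5g1 had a log2 night minus day difference of 0.17 (95% interval -0.01 to 0.35; edgeR adjusted p = 0.204), against -0.01 for each of the other two. The difference between these genes was not tested. Per length over the union of annotated exons, Atp5g3 stood at 95.02 ± 7.20 CPM per kilobase (RPKM), Atp5g1 at 27.1 ± 2.97 and Atp5g2 at 17.2 ± 1.30 (SD, n = 12). With the length of the longest annotated transcript the order of the last 2 turned, with Atp5g2 at 38.2 and Atp5g1 at 28.2 RPKM.

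Although level through the day, the members differed widely in level from each other. Per length, median levels were 42.5 RPKM in complex I, 90.3 in complex II, 112 in complex III, 97.8 in complex IV and 67.5 in complex V. The highest and lowest gene differed 21.7 times within complex I (Ndufa4, 146 RPKM; Ndufb2, 6.74), 2.84 times within complex II (Sdhd, 127; Sdhc, 44.7) and 3.27 times within complex III (Uqcr11, 188; Uqcrc1, 57.5). In complex IV they differed 6.20 times (Cox6a1, 232; Cox6c, 37.4) and in complex V 34.1 times (Atp5a1, 301; Atp5l, 8.81). Atp5b stood beside Atp5a1 at 291 ± 16.4 RPKM, within 1 SD of it. That closeness rests on the length used: with the longest annotated transcript Atp5b was at 644 and Atp5a1 at 352 RPKM. With that length the highest gene was Ndufb9 in complex I, Sdha in II and Atp5b in V, the lowest gene of complex III was Uqcrq, and the spans within complexes I to V were 24.6, 3.33, 2.30, 5.98 and 71.6 times. Both lengths can far exceed that of the longest protein-coding transcript. For Cox6c they were 3567 and 3038 bases against 738, and for Ndufb7 4522 and 4435 against 623. Levels by the coding transcript were not computed, so the genes named lowest and the spans may follow the annotated length. The lowest values include genes that share sequence with other genes: 61.4% of the 100-base stretches of Atp5l occur in another gene of the annotation, so its reads may be split or lost. Such stretches occurred in 19 of the 74 genes, and in 22 an exon overlapped another gene of the table, so that 41 had neither. The nearest member to the threshold was Ndufs5 at 23.7 CPM, and the nearest gene below it was Atp5s.

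**Figure D4:**
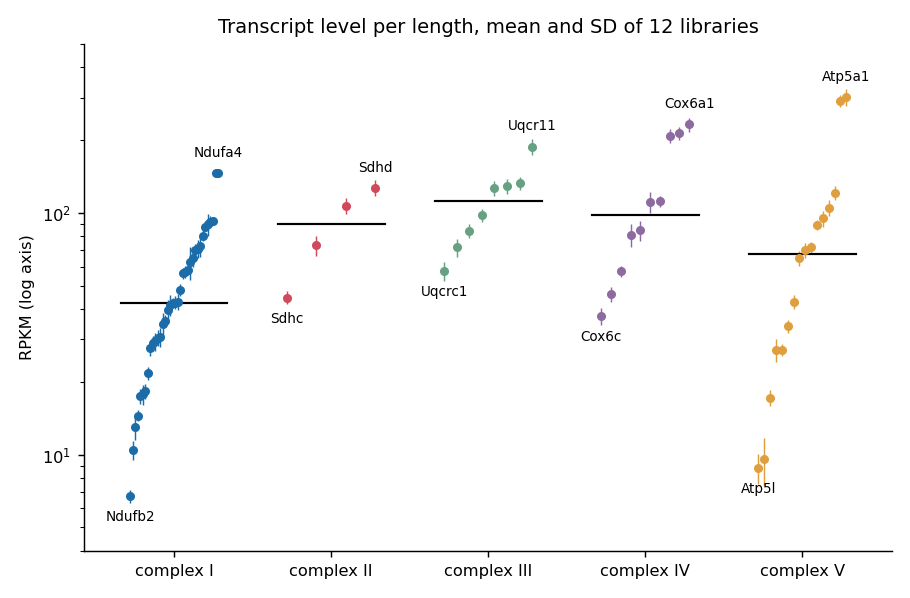
Level per length (vertical log axis, RPKM; point and bar, mean and SD of 12 libraries) of each of the 74 genes, sorted within complexes I to V, with the complex median as a black line and the highest and lowest gene named. Medians lie between 42.5 and 112 RPKM, and the spread is 21.7 times in complex I and 34.1 times in complex V, against 2.84 times in complex II (24.6, 71.6 and 3.33 times with the longest transcript as length). The genes named and the spread depend on the length used.

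Peak times of the fitted 24 h curves lay in the light and in the dark phase. They lay between ZT 4 and ZT 12 for 31 of the 74 genes and between ZT 16 and ZT 20 for 23, while the bins from 0 to 4 h and from 12 to 16 h held 4 and 5. With ranges as small as these, a peak time describes the fit and does not place a rhythm. Across the 74 genes, the log2 night minus day difference had a Spearman's rho of -0.31 with the length of the transcript (Pearson's r -0.28 with log2 length). With its GC content rho was 0.31 (r 0.18), and with the mean CPM of the gene -0.34 (r -0.14 with log2 of that mean). The genes share libraries, depth and base composition, so these values are descriptions only. Above 0 were 43 of the 74 differences (58.1%, beside 47.4% of the genes of at least 5 CPM), with 25 of 36 in complex I, 0 of 4 in complex II, 4 of 8 in complex III, 6 of 10 in complex IV and 8 of 16 in complex V, around a median of 0.02 for the members, -0.01 for the genes of at least 5 CPM and 0.01 for all genes tested.

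The 2 libraries of a time could differ as a set. The mean of the 74 genes, each centred on its own log2 mean, was 0.03 and -0.05 in replicates 1 and 2 of ZT02, 0.10 and -0.01 at ZT06 and -0.09 and -0.05 at ZT10. In the dark phase it was 0.09 and -0.03 for ZT14, 0.03 and 0.01 for ZT18, then -0.001 and -0.03 for ZT22. Both ZT10 libraries were below 0, and at ZT02, ZT06 and ZT14 the 2 libraries lay on either side of 0. Replicate 1 was the higher library for 55 of 74 members at ZT02, 56 at ZT06 and 62 at ZT14, while 50.01%, 56.1% and 44.4% of the genes of at least 5 CPM were higher in it. It was the higher one for 28 members at ZT10 (37.8%), 42 at ZT18 (56.8%) and 45 at ZT22 (60.8%). Of the genes of at least 5 CPM, 52.3%, 41.0% and 46.2% were higher in it at these times. Of the 77 cytosolic ribosomal protein genes, 8 were higher in replicate 1 at ZT02, 20 at ZT06 and 4 at ZT10. In the dark phase 74 were at ZT14, 69 at ZT18 and 10 at ZT22. Most of them went the same way as most members at ZT10, ZT14 and ZT18, and the other way at ZT02, ZT06 and ZT22. ZT02 replicate 1 also held the highest sums of hepatocyte, macrophage, erythroid and immediate-early markers, and ZT14 replicate 1 the lowest sum of lymphocyte markers (3.35 CPM). Only the macrophage genes were all highest in ZT02 replicate 1. Of the hepatocyte genes only Alb and Cps1 were, and erythroid Alas2 was highest in ZT06 replicate 1. Of the immediate-early genes only Egr1 was (28.9 CPM). Fos and Ier2 were highest in ZT10 replicate 1, Jun and Atf3 in ZT14 replicate 1 and Junb in ZT02 replicate 2. The part of these marker genes in the members' levels was not tested.

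**Figure D5:**
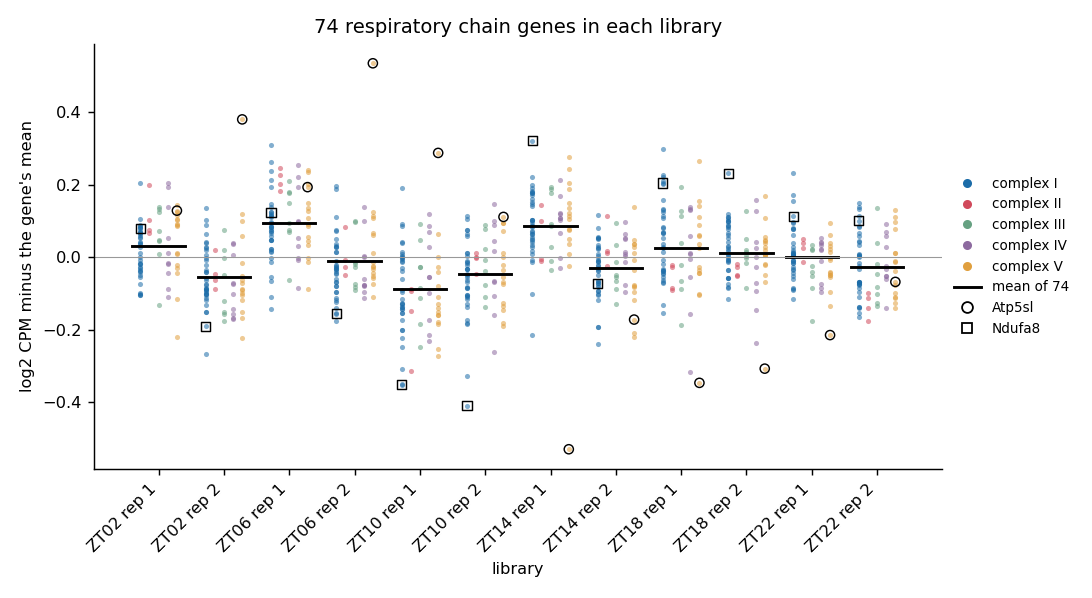
Level of each of the 74 genes in each of the 12 libraries (horizontal axis) as log2 CPM minus the gene's mean (vertical axis), coloured by complex, with the mean of all 74 as a black bar and Atp5sl (circle) and Ndufa8 (square) outlined. The means lie between -0.09 (ZT10 replicate 1) and 0.10 (ZT06 replicate 1), and Atp5sl is above them in each day library and below them in each night library.

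Genes around the chain were counted in lists chosen by function. Of 8 subunits and electron carriers that the symbol rule leaves out, 7 were tested and 0 passed in any edgeR test. For night minus day 2 (28.6%) had an unadjusted p below 0.05, near the 26.6% of all genes tested. Cox4i1, a large regulatory subunit of complex IV, was 281 CPM with a range of 1.06-fold. Etfdh was 258 CPM, with the widest range of the 7, 1.199-fold. Its log2 night minus day difference was -0.186 (edgeR adjusted p = 0.167). Cyc1, the cytochrome of complex III, was named after its value was seen. It was 129 CPM, with the smallest range of the 7, 1.02-fold. The 13 citric acid cycle genes, 10 carrier and uncoupler genes and 77 cytosolic ribosomal protein genes had 0 genes passing the 24 h test in edgeR, with median ranges of 1.11, 1.09 and 1.12. At an unadjusted p below 0.05 the 24 h counts were 1, 0 and 2 (7.69%, 0% and 2.60%). The share was 31.5% of all genes tested and 39.3% of those of at least 5 CPM.

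Assembly factors, which build the complexes without staying in them, and regulators of mitochondrial biogenesis had median 24 h ranges of 1.22-fold and 1.38-fold, beside 1.07-fold for the subunits; this difference was not tested. Of 33 assembly factors tested, 3 passed the 24 h test in edgeR (Sdhaf1, Lyrm7 and Ndufaf4), which is 9.09% beside 12.0% of all genes tested. Sdhaf1, which helps to mature the iron-sulfur subunit of complex II, had a range of 1.58-fold with a peak near ZT 13.9 (edgeR adjusted p = 0.0106). Lyrm7, a factor for the Rieske protein, had a range of 1.85-fold at 1.79 CPM (edgeR adjusted p = 0.0427). Ndufaf3, a complex I factor, was the 1 assembly factor higher at night, with a log2 difference of 0.38 (edgeR adjusted p = 0.0176), and 0 were lower, beside 4.8% of all genes higher and 4.89% lower. Calls of 3 of these genes depended on single libraries: omitting any library other than ZT10 replicate 2 ended that of Lyrm7 (11 of 12). Omitting any library other than replicate 1 of ZT18 or of ZT22 ended that of Ndufaf4 (10 of 12), and omitting ZT14 replicate 1 or either ZT18 library that of Ndufaf3 (adjusted p up to 0.102, 0.112 and 0.0552). The calls of Lyrm7 and Ndufaf4 were also lost without either crossed pair (adjusted p up to 0.0933 and 0.141), and that of Ndufaf3 without ZT02 replicate 2 and ZT06 replicate 1 (0.0754). Without ZT02 replicate 1 and ZT06 replicate 2 the adjusted p of the 24 h test of Sdhaf1 was 0.0539, and 0 assembly factors passed.

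Of 17 biogenesis regulators tested, 7 passed the 24 h test in edgeR, or 41.2% beside 12.0% of all genes tested. At night 5 were lower (29.4% beside 4.89% of all genes) and 0 higher (beside 4.8%). Pprc1, a coactivator related to PGC-1alpha, had the widest range at 2.48-fold with a peak near ZT 12.9 (edgeR adjusted p = 0.0252); this call was lost without ZT02 replicate 1 or ZT14 replicate 2. Esrra, the estrogen-related receptor alpha, had a range of 1.52-fold with a peak near ZT 14.5 (edgeR adjusted p = 0.0170), lost without ZT02 replicate 1. Peo1, the mitochondrial DNA helicase, had a range of 1.48-fold (edgeR adjusted p = 0.00705), a call kept in every fit. Gabpa, the DNA-binding subunit of nuclear respiratory factor 2, was 76.1 ± 4.61 CPM by day and 58.3 ± 9.17 by night (SD, n = 6 each), a log2 difference of -0.39 (edgeR adjusted p = 0.0196) that no longer passed without ZT18 replicate 1, ZT22 replicate 2, or the crossed pair of ZT02 replicate 2 and ZT06 replicate 1 (adjusted p = 0.0681 for the pair). The 24 h calls of Pprc1 and Esrra were also lost without either crossed pair of ZT02 and ZT06 libraries, with adjusted p up to 0.0978 and 0.0669.

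Of regulators named after their values were seen, Ppargc1a, which encodes PGC-1alpha, was 9.76 ± 2.31 CPM by day and 6.54 ± 0.717 by night, with a log2 difference of -0.58 (edgeR adjusted p = 0.0246). Omitting 1 of 5 libraries ended that call: replicate 2 of ZT02 or ZT22, replicate 1 of ZT14, or either library of ZT18. It was lost without either crossed pair too, with adjusted p up to 0.0884. Tfam, which packages and transcribes mitochondrial DNA, had a range of 1.19-fold (edgeR adjusted p = 0.173), and Nrf1, nuclear respiratory factor 1, one of 1.23-fold (edgeR adjusted p = 0.110). The count of 7 was 2 and 4 without the crossed pairs, 4 without ZT02 replicate 1, 3 without ZT18 replicate 1 and 4 without ZT18 replicate 2. The count of 5 lower at night was between 0 and 6 in such fits, and it was 3 or fewer when replicate 2 of ZT02 or ZT06, replicate 1 of ZT10 or ZT14, or any library of ZT18 or ZT22 was omitted. Among 73 mitochondrial ribosomal protein genes, 4 passed the 24 h test (5.48% beside 12.0% of all genes tested), with a median range of 1.15-fold, and the count was 1 to 8 when 1 library was left out. Mrps6 had the widest of these ranges at 2.07-fold (edgeR adjusted p = 0.00418), a call kept in every fit.

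RefSeq promoters of 300 bases were at hand for 64 of the 74 genes and for 27025 genes in all, and each motif was searched on both strands. The motif of nuclear respiratory factor 1 was found in 5 of the 64 genes (7.81%) and in 1.07% of all genes, and that of YY1 in 6 (9.38%) and 0.995%. The ETS motif (CCGGAAG), bound by Gabpa, was found in 16 (25.0%) and 9.93%. The CRE (TGACGTCA) was found in 4 members (6.25%) and 2.03% of all genes, and the estrogen-related receptor motif (TCAAGGTCA) in 2 (3.12%) and 0.466%. The GC box was found in 10 members (15.6%) and 12.9% of all genes.

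Of clock-related motifs, the E-box was found in 7 of the 64 genes (10.9%) and 8.09% of all genes, and the D-box (TTATGTAA) in 1 (1.56%) and 1.11%. The genes with an E-box were Ndufa7, Ndufv1, Atp5f1, Atp5g1, Atp5g3, Atp5l and Atp5sl, and the 6 other than Atp5sl had fitted 24 h ranges between 1.04 and 1.195-fold. A match is a description of letters in this window, and these shares were not tested.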

How the data were processed

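The deposited table holds whole-number exon counts per gene. Per the submitters' processing notes the authors used STAR 2.4.0i and mm10; the counting tool, strand setting and annotation are not given in the sources used here, so reads of overlapping genes cannot be told apart. From these counts, CPM were computed at TMM effective library sizes, and RPKM per kilobase of the union of GENCODE M21 exons. Tests were edgeR 4.0.16 quasi-likelihood tests in R 4.3.3 over all 12 libraries, after filterByExpr by time (minimum count 10), with Benjamini-Hochberg adjustment over all 17142 genes tested and a threshold of 0.05. The tests were a 24 h harmonic, any difference among 6 times, night minus day, dusk minus dawn and a 12 h harmonic beside the 24 h one. Limits of the 24 h range came from least squares on log2 CPM (prior count 2). Alternatives were RLE factors, total counts only, DESeq2 1.42.0, limma-voom (limma 3.58.1), no low count filter, a replicate block, each library left out, and both crossed ZT02 and ZT06 pairs left out. The scripts were tested on simulated data. The members and lists were chosen with earlier results of these data known.

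Named genes were the members called in any test, the 2 of highest level per length and the 2 of smallest 24 h p in each complex, isoform sets, the genes nearest the level threshold, and from each list up to 4 called genes or else the 2 most abundant. Not every list gene of this rule is given above. Other names are marked as chosen after their values were seen. Unmarked are genes given as a full set, as the extremes or exceptions of a range or count, or for a motif.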

Additional observations from a re-analysis of the deposited data

Results flagged for a closer look

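Atp5g2, 1 of the 3 genes for subunit c of ATP synthase, was 33.1 CPM in ZT14 replicate 1, while the other 5 night libraries lay between 27.1 and 28.5 CPM. The gap to the nearest of them was 0.766 of the whole range of the 6 libraries, above Dixon's 95% critical value for 6 samples. Chance gives about 1 such value in 20 groups, and 1 was found in 46 groups tested. ZT14 replicate 1 was the higher of the 2 ZT14 libraries for 62 of the 74 respiratory chain genes, beside 44.4% of the genes of at least 5 CPM.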

How the results depend on the processing

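The 24 h count of 1 member, the dusk minus dawn count of 0 and the 12 h count of 0 were the same in all 20 alternatives, with 1 to 1, 0 to 0 and 0 to 0 when 1 library was left out. The count for any difference among 6 times was 0 with limma-voom, with total counts only and without either crossed pair of ZT02 and ZT06 libraries, and 0 to 1 when 1 library was left out. The night minus day count was 1 with RLE size factors, with no low count filter and without either crossed pair, and 1 to 2 when 1 library was left out. The cause was not tested. Of 1380 alternative values for 23 named members, 1367 kept their side of the threshold and 13, all of Ndufa8 for night minus day, lost it, among them RLE factors (edgeR adjusted p = 0.0507) and no filter (0.0747); 0 reversed.

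With total counts only, the median log2 night minus day difference was 0.04 over all genes and 0.05 over the members, against 0.01 and 0.02 with TMM. The members above 0 became 58 of 74 in place of 43, and the calls over all genes 1077 higher and 624 lower in place of 823 and 839. With the longest transcript as length, median RPKM was 62.2 in complex I, 130 in II, 140 in III, 145 in IV and 101 in V.

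Among alternatives run after the data were seen, the 24 h count of biogenesis regulators was 2 to 7, of assembly factors 0 to 8 and of mitochondrial ribosomal protein genes 1 to 12. With the replicate number as a block, the members' counts were 1, 1, 2, 0 and 0 for the 24 h, any-time, night, dusk and 12 h tests, as without it, while the 24 h calls of the assembly factors Lyrm7 and Ndufaf4 were lost (edgeR adjusted p = 0.0518 and 0.0525). Not every pair of times showed a pairing by number: deviations of same-numbered libraries correlated at -0.18 to 0.27, the highest between ZT02 and ZT06, so the numbers were not taken to pair the libraries.

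Each of the 6 times has 2 libraries, and the precision of single calls is limited by their spread.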
